A study of Mus musculus with 48 samples.

Results

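The hippocampus of Cyfip2+/- mice was compared with that of wild-type (WT) mice at postnatal week 14 (PWK 14) by bulk RNA sequencing. The comparison takes the 4 Cyfip2+/- and the 4 WT hippocampal libraries of that age, chosen by the genotype, tissue and age in their labels, which are 8 of the 48 libraries of the series. All mice were C57BL/6N, each Cyfip2+/- mouse was heterozygous for loss of 1 copy of Cyfip2, the WT mice were littermates, and the sample records name no agent for either group. The rest of the series holds the frontal cortex of the same ages and the hippocampus at younger ages, of which only the cortex at PWK 14 and the hippocampus at PWK 7 are used here. Mice of both sexes were used in the study, the sample records do not give the sex of a library, and each library is taken as 1 mouse. Y-linked genes, looked up after the values were seen, were present in all 8 libraries, with Ddx3y at 1340 to 1825 and Kdm5d at 944 to 1129. The question was which genes other than Cyfip2 differ when 1 copy is lost.

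CYFIP2 and its paralog CYFIP1 are alternative subunits of the WAVE regulatory complex, which holds a WAVE protein inactive until the small GTPase Rac1 binds. Released WAVE then switches on the Arp2/3 complex, which starts branched actin filaments, the scaffold of dendritic spines and growth cones. CYFIP proteins were also described as partners of FMRP, the RNA-binding protein lost in fragile X syndrome. The hippocampus holds the CA fields and the dentate gyrus, and its neurons respond to activity by transcribing immediate early genes within minutes.

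The values are the authors' normalized read counts per gene, on a linear scale, and 16903 of the 18428 genes in the table reached 10 in 4 or more of these 8 libraries and were tested. The libraries summed to 30.8 M to 31.9 M normalized counts, and log2 values of libraries of a genotype correlated by 0.980 to 0.989 across genes. Markers of the labelled tissue were present. Prox1, the transcription factor of dentate granule cells, had a value of 2882 to 3855, and Fibcd1, a CA1 marker, of 3887 to 5384. Choroid plexus RNA varied more than any other marker set among the 20 cell type lists. The summed level of 11 choroid plexus genes ran from 5896 to 199774 in Cyfip2+/- and from 2887 to 123584 in WT libraries.

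WT libraries 3 and 4 stood apart from the others of their genotype, and each result below is given with and without them where that matters. In library 4, genes with long transcripts (over 4000 nt) read lower relative to short ones (under 1000 nt) by 0.12 on the log2 scale (a difference of -0.12), against -0.02 to 0.05 in the other 7. In library 3, 67 of the 12755 genes with a mean of at least 100 lay far from the other WT libraries, with a gap of over 0.5 on the log2 scale and past Dixon's 95% critical value for 4 samples. The other 7 libraries had 10 to 22 such genes each. The genes that set library 3 apart, named after their values were seen, included genes of dentate granule cells and of reactive astrocytes. Others belonged to neither list. Rps27, a ribosomal protein gene, read 599 in library 3 against 61.8 to 78.3 in the other 7, and Trib2 read 3096 against 918 to 1087. Plk5, a polo-like kinase of the brain, read 150 there and 630 to 752 in the other 7 libraries. Tdo2, a marker of mature granule cells, read 42.7 there against 139 to 199. Gabrd, the delta subunit of extrasynaptic GABA-A receptors, read 402 against 666 to 748, and Pdyn, the dynorphin precursor, 133 against 299 to 399. Other markers of granule cells did not all fall. Dsp (2652 against 1765 to 2270) and Calb1 (3999 against 3299 to 3703) were higher in library 3 than in the other 7. Prox1 and C1ql2 lay within the range of the other 7, and Lct was lower (1030 against 1098 to 1436). Inhba, an activin subunit, had a value of 744 in library 3 and of 186 to 276 elsewhere. Gfap, the intermediate filament of astrocytes, had a value of 20066 there and of 9576 to 11097 elsewhere. Why this mouse differed was not tested.

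The targeted gene, Cyfip2 (ENSMUSG00000020340, chr11:46193850-46312859, minus strand, GRCm38), had normalized counts of 18450, 18678, 17233 and 18625 in the Cyfip2+/- mice and of 25638, 27949, 29851 and 24719 in the WT mice. The groups did not overlap, and every Cyfip2+/- value lay under the lowest WT value. The means were 18246 ± 683 (SD, 4 mice) and 27039 ± 2315 (SD, 4 mice), so that Cyfip2+/- mice held 67.5% of the WT level. Cyfip2 fell by 0.56 on the log2 scale (SE 0.06, adjusted p = 0.0373 by limma with Benjamini-Hochberg adjustment). An exact two-sided permutation test over the 70 ways to label the 8 mice gave p = 0.0286, the smallest that 4 against 4 allow. The call did not need the 2 WT libraries that stand apart, since Cyfip2 alone passed without WT library 3 (adjusted p = 0.0347), without WT library 4 (adjusted p = 0.0206) and without both (adjusted p = 0.0440). It was lost when any of the other 6 libraries was left out, with an adjusted p of up to 0.263 and a difference of -0.61 to -0.52 over all 8 omissions. Cyfip1, the paralog, read 4043 to 4220 in Cyfip2+/- and 3853 to 4556 in WT mice, a difference of -0.06 (SE 0.06, adjusted p = 0.911). Without WT library 4, which held the lowest value, the difference of Cyfip1 was -0.11 (adjusted p = 0.756 by limma), and its unadjusted p was then under 0.05.

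Cyfip2 was the only differentially expressed gene (DEG, adjusted p under 0.05 by limma), 0.00592% of the genes tested. The study, which used DESeq2 at the same threshold, reported more DEGs for this comparison. At an unadjusted p under 0.05 there were 454 genes higher in Cyfip2+/- (2.69% of all tested) and 450 lower (2.66%). Without WT library 3 there were 399 higher and 407 lower of 16800. Without WT library 4 there were 510 and 562 of 16781, and without both 387 and 399 of 16631. Values of the genotypes did not overlap in 616 genes (3.64%), of which 254 were higher and 362 lower in Cyfip2+/-. The median difference over all genes was 0.00 on the log2 scale, the mean was lower in Cyfip2+/- in 49.1% of genes, and the median residual SD was 0.14. In bulk tissue, fewer cells of a type and less RNA per cell cannot be told apart. These shares are the background against which each group of genes below is read. None of the genes described from here on passed the test over all genes, so their differences are given as measured.

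**Figure D1:**
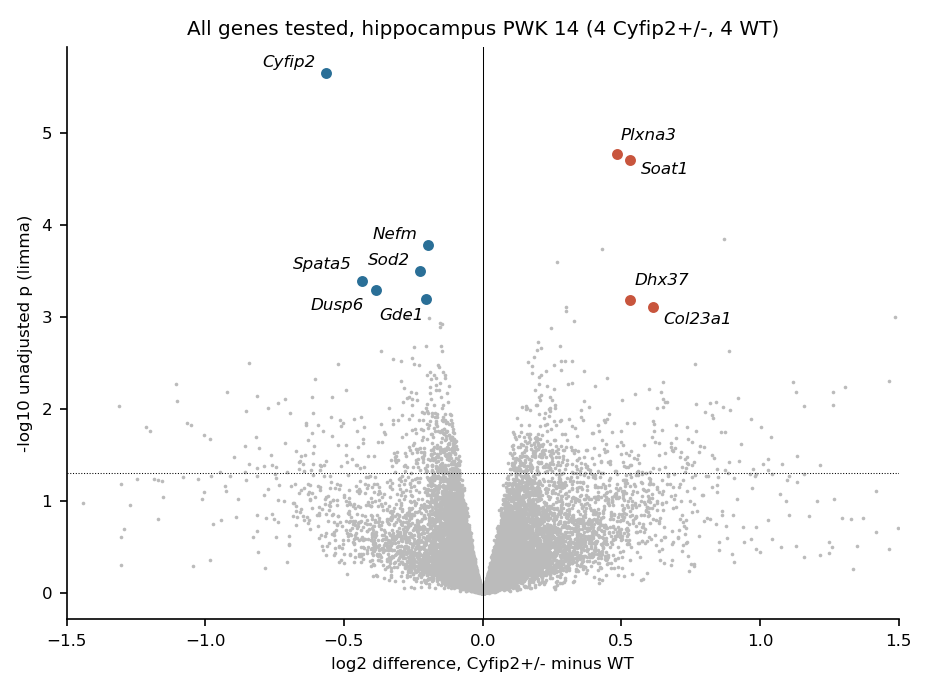
All 16903 genes tested, with the log2 difference of Cyfip2+/- minus WT on the x axis and -log10 of limma's unadjusted p on the y axis. Grey points are genes, 10 of the genes described in the text are named (blue lower, red higher), the dotted line marks an unadjusted p of 0.05, and 23 genes with a difference beyond 1.5 on either side are outside the drawn range. Cyfip2 stands highest, followed by Plxna3 and Soat1.

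Plxna3 and Soat1 came next, both higher in Cyfip2+/- mice. Both belong to the genes named for groups that do not overlap and the smallest p, so their lack of overlap is set by that choice. Plxna3 (ENSMUSG00000031398, chrX:74329066-74344689) encodes plexin-A3, a receptor that pairs with neuropilins to read class 3 semaphorins during axon guidance and pruning. Its values were 1604, 1663, 1669 and 1679 in Cyfip2+/- and 1190, 1246, 1044 and 1265 in WT mice. The 4 Cyfip2+/- values were close together and lay above all WT values, at 139% of the WT mean. The difference was 0.48 (SE 0.06, adjusted p = 0.109). Soat1 (ENSMUSG00000026600, chr1:156424525-156474331) encodes the endoplasmic reticulum enzyme that joins cholesterol to fatty acids for storage. Its values were 1569, 1276, 1518 and 1387 in Cyfip2+/- and 993, 961, 952 and 1059 in WT mice, again with no overlap and at 145% of the WT mean. The difference was 0.53 (SE 0.07, adjusted p = 0.109). Plxna3 passed in 2 of the 21 other fits, with all 24 hippocampal libraries in a single model (adjusted p = 0.0218) and with array weights (adjusted p = 0.0480). It did not pass with all 48 libraries (adjusted p = 0.0751), with precision weights (adjusted p = 0.125) or in any of the others.

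Among the 15 genes named as higher, the others were of mixed function, and all had an adjusted p of 0.883 by limma. They too were named by that rule, so a gap between the genotypes is set by the choice. Dhx37, a helicase of ribosome assembly, read 765, 748, 726 and 709 in Cyfip2+/- and 614, 414, 477 and 556 in WT mice (difference 0.53, SE 0.11). Col23a1, a membrane-spanning collagen, read 715, 748, 695 and 673 against 456, 517, 345 and 559 (difference 0.61, SE 0.13). In both genes the Cyfip2+/- mice formed a tight high group, and the WT mice were spread below it. Rapgef3, which encodes the cAMP-gated Rap exchange factor Epac1, read 1382, 1344, 1425 and 1297 against 1059, 1184, 1013 and 1178 (difference 0.30, SE 0.06). Zdbf2, an imprinted gene transcribed from the paternal copy, read 917, 887, 914 and 972 against 694, 802, 776 and 730 (difference 0.30, SE 0.06). Golgb1, the Golgi tether giantin, read 5258 to 6012 against 4333 to 4983 (difference 0.25). The differences of the other 8, which were Ddx18, Evi5, Btbd7, Adgrf5, Hook1, Cnot6, Atp2b4 and Fhl1, ran from 0.16 for Fhl1 to 0.33 for Ddx18. Of these, Btbd7 alone passed in 1 other fit, that of all 48 libraries (adjusted p = 0.0445).

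The 15 genes named as lower, Cyfip2 among them, were also of mixed function. Nefm, the medium neurofilament chain that fills large axons, had the smallest p after Cyfip2, Plxna3 and Soat1 among the named genes. It read 5201, 5310, 5234 and 5186 in Cyfip2+/- and 6044, 6018, 5868 and 6049 in WT mice. The spread within each genotype was small beside the gap between them, and Cyfip2+/- mice held 87.3% of the WT mean (difference -0.20, SE 0.03, adjusted p = 0.515). Sod2, the superoxide dismutase of mitochondria, read 4737, 4842, 4761 and 4557 against 5836, 5560, 5346 and 5348 (difference -0.22, SE 0.04, adjusted p = 0.667). Dusp6, the phosphatase that switches off ERK and is itself induced by it, read 1731, 1745, 1539 and 1623 against 1912, 2244, 2455 and 2080 (difference -0.38, SE 0.08, adjusted p = 0.847). The rule that named these 15 genes asked for groups that do not overlap and the smallest p, so such gaps are set by the choice. Spata5, an AAA ATPase, read 280 to 313 in Cyfip2+/- and 364 to 437 in WT mice (difference -0.43, SE 0.08, adjusted p = 0.762).

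The remaining genes of that group had an adjusted p of 0.883. Chgb, the dense-core vesicle protein chromogranin B, read 18922, 19053, 18752 and 19547 in Cyfip2+/- and 21229, 20763, 21729 and 21180 in WT mice (difference -0.15, SE 0.03). Lynx1, a brake on nicotinic receptors, read 12021, 11102, 10728 and 11005 against 13026, 12530, 12732 and 12905 (difference -0.19, SE 0.04). Npy, the peptide of many interneurons, read 693, 713, 756 and 736 against 922, 846, 905 and 833 (difference -0.27, SE 0.06). Chgb and Lynx1 are among the abundant transcripts here, while Npy is carried by a small share of the cells. Gde1, Nefl, Sub1, Snrpn, Cnih2, Hapln4 and Crhbp differed by -0.37 (Crhbp, which binds corticotropin-releasing hormone) to -0.15 (Nefl). Fth1, the iron-storing ferritin heavy chain, read 48584 to 49887 in Cyfip2+/- and 53317 to 56311 in WT mice (difference -0.15, SE 0.04, adjusted p = 0.883). Many of the named genes, Plxna3, Soat1, Nefm and Fth1 among them, are also on the study's list of DEGs for this comparison, made with DESeq2. The study drew that list from these same libraries, so it is not independent evidence of their direction. Snrpn shares its transcript with Snurf, and the annotated span of Nefm overlaps Nefl on the other strand. Whether strand was used in the read assignment is not given in the sources used here, so reads of overlapping genes may be split between them.

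**Figure D2:**
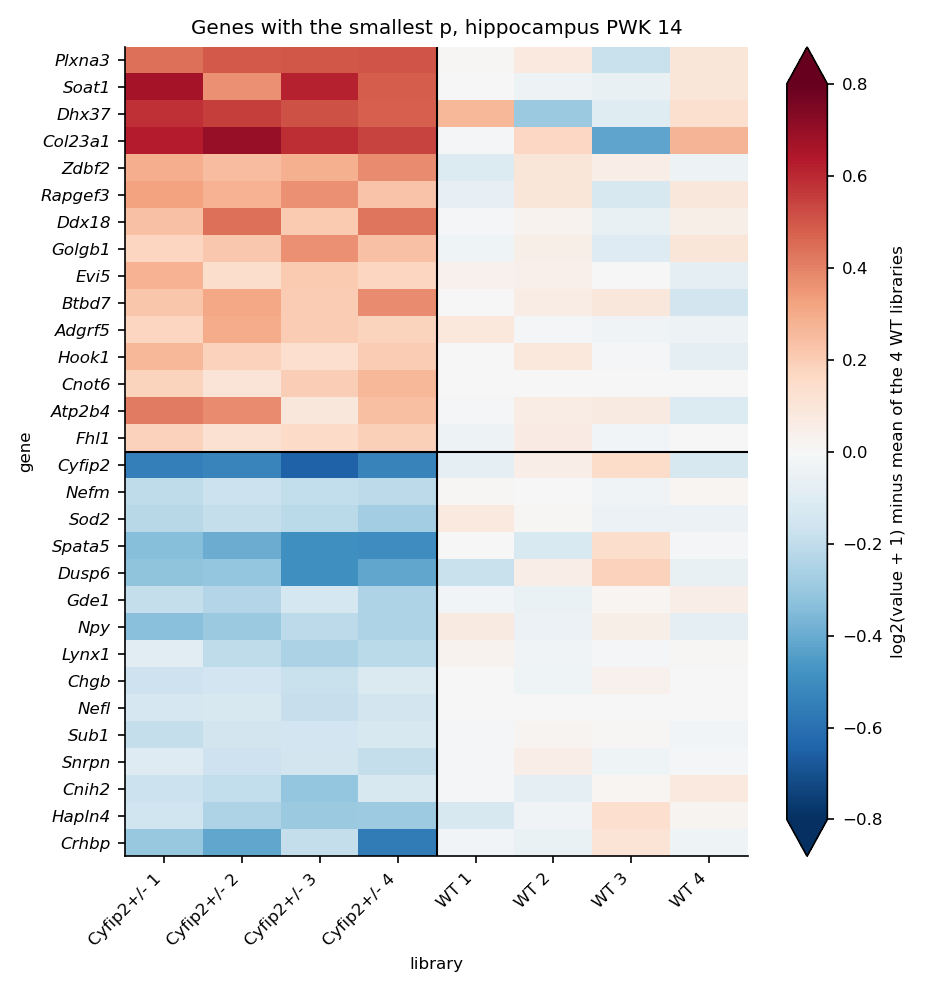
The 15 genes named as higher (above the line) and the 15 named as lower (below it) in each of the 8 libraries, as log2(value + 1) minus the mean of the 4 WT libraries. Rows were chosen for groups that do not overlap, so the block pattern is set by the choice, and what can be read is the size of the difference and the spread of single libraries.

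The other subunits of the WAVE complex differed by much less than Cyfip2. Of the 11 genes of the complex tested, Cyfip2 alone had an unadjusted p under 0.05, and the median difference was -0.07 against 0.00 over all genes. Nckap1, the partner that CYFIP proteins bind, had values of 19754 to 21246 in Cyfip2+/- and 20562 to 22967 in WT mice (difference -0.07, adjusted p = 0.895). Wasf1, which encodes WAVE1, differed by -0.07, the small subunit Brk1 by -0.08 and Abi1 by -0.10, while Abi2 differed by 0.05. The median of the list was -0.03 without WT library 3 and -0.10 without WT library 4, where 3 of the 11 were lower at that threshold. Of all 16781 genes in the fit without WT library 4, 562 were lower at it.

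The Arp2/3 complex, which WAVE activates, had lower means in Cyfip2+/- mice in 10 of 10 genes, against 49.1% of all genes. The differences were small, from -0.15 (Arpc2) to -0.03 (Arpc1b), with a median of -0.11. Unadjusted p was under 0.05 in 3 of the 10, all lower, against 2.66% of all genes. These were Actr3b, Arpc3 and Actr2. Arpc3 read 3930, 3852, 3618 and 3864 in Cyfip2+/- and 4186, 4055, 4014 and 4263 in WT mice (difference -0.11, SE 0.04, adjusted p = 0.883). Actr3b, a brain form of the ARP3 subunit, read 3602, 3487, 3335 and 3445 against 3860, 3860, 3603 and 3713 (difference -0.12, SE 0.04, adjusted p = 0.883). Actr3b and Arpc3 kept the genotypes apart, and in the other 8 genes the values overlapped. WT library 3 held the highest value of Arpc2, Actr2, Actr3 and Arpc5 among the 8, and without it 10 of 10 remained lower with a median of -0.07 and 2 at an unadjusted p under 0.05. Without WT library 4 the number at that threshold was 5. In that fit 562 of all 16781 genes were lower, against 450 of 16903 with all libraries. Cortical values at PWK 14 had lower means in 10 of 10 with a median of -0.05. Of the same genes, 7 of 10 had lower means at PWK 7 in hippocampus, with a median of -0.01.

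Of the 14 genes of FMRP and cap-dependent translation, 1 was higher at an unadjusted p under 0.05, which was Fmr1 itself (1808 to 2055 against 1735 to 1823, difference 0.12, adjusted p = 0.883), and none was lower. At that threshold 2.69% of all genes were higher and 2.66% lower. The unadjusted p of Fmr1 by limma was 0.056 without WT library 3 and 0.073 without WT library 4.

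Neurofilaments and the axonal cytoskeleton had lower means in 12 of 15 genes with a median of -0.09, and 6 were lower at an unadjusted p under 0.05 against 2.66% of all genes. All 4 neurofilament subunits of the central nervous system were among them. Nefl, the light chain that the others assemble on, read 16253, 16320, 15675 and 16086 in Cyfip2+/- and 17793, 17871, 17799 and 17756 in WT mice (difference -0.15, SE 0.03). Nefh, the heavy chain, read 1551, 1535, 1639 and 1413 against 1707, 1757, 1787 and 1953 (difference -0.23, SE 0.06). Ina, the alpha-internexin chain, read 4858 to 5080 against 5162 to 5443 (difference -0.11, SE 0.04). Each of these had an adjusted p of 0.883, and in none of the 4 did a Cyfip2+/- value reach the lowest WT value. The others were Tubb4a, a beta-tubulin of brain, and Dynll1, a dynein light chain. Peripherin (Prph), the neurofilament-like protein of peripheral neurons, differed by 0.20. In cortex at PWK 14 the differences of Nefm and Nefl were -0.35 and -0.16 (adjusted p of 0.673 and 0.698). At PWK 7 those in hippocampus were -0.10 and -0.06 (adjusted p of 1.00 for both).

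**Figure D3:**
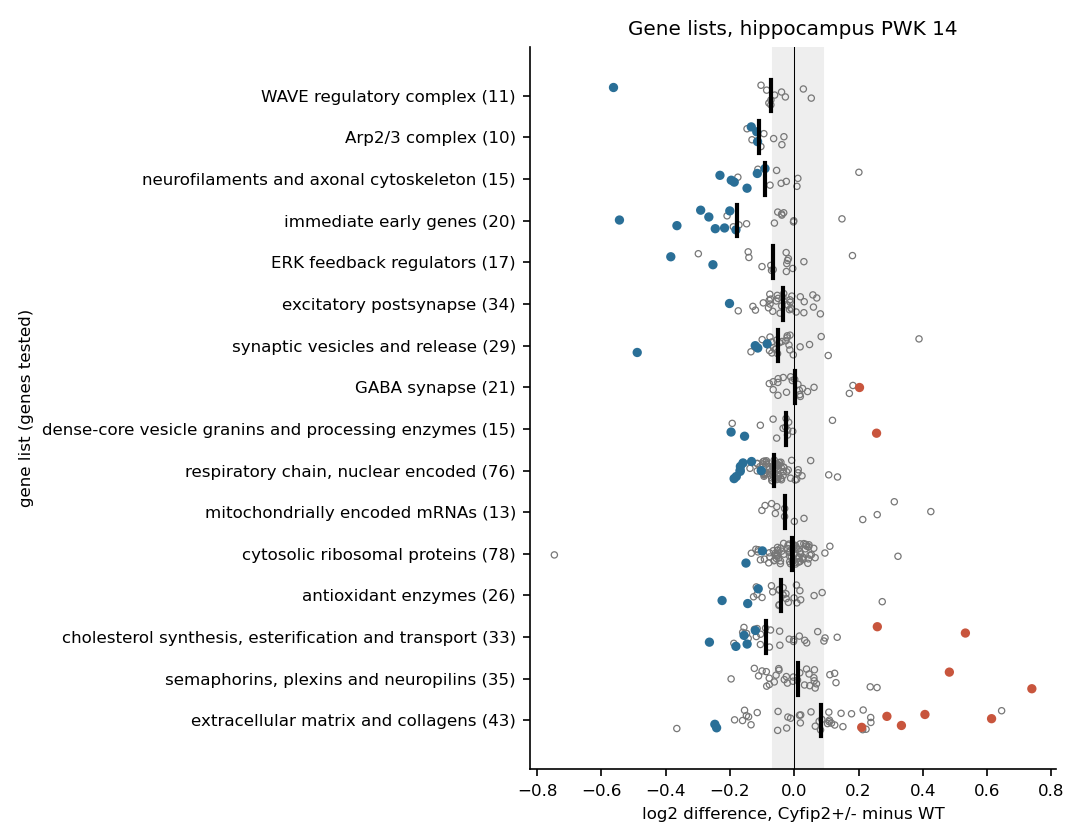
Log2 difference of Cyfip2+/- minus WT for each tested member of 16 lists, with the number tested in brackets. Filled points have an unadjusted p under 0.05 (blue lower, red higher), black bars are list medians, and the grey band is the middle 50% of all genes (-0.07 to 0.09). The medians of immediate early genes (-0.18), the Arp2/3 complex (-0.11), neurofilaments (-0.09), cholesterol genes (-0.09) and the WAVE complex (-0.07) lie below the band.

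Immediate early genes had the most negative median of the 49 lists, -0.18, and 19 of 20 had lower means in Cyfip2+/- mice. Of the 20, 8 were lower at an unadjusted p under 0.05, against 2.66% of all genes, and none was higher. Nr4a1, an orphan nuclear receptor induced by calcium and cAMP, read 2771, 2583, 2572 and 2215 in Cyfip2+/- and 2904, 3075, 3055 and 2954 in WT mice (difference -0.25, SE 0.06). Egr2, a zinc-finger factor, read 164 to 264 against 242, 305, 332 and 268 (difference -0.54, SE 0.16). Cyfip2+/- library 1 lay within the WT range of Egr2 at 264, and the other 3 lay below it. Arc, whose product shapes AMPA receptor traffic, read 7177, 5871, 5213 and 5125 against 6322, 7797, 7600 and 6738 (difference -0.29, SE 0.11). Fos read 862, 774, 722 and 610 against 857, 981, 886 and 825 (difference -0.27, SE 0.10). Library 1 was again the highest Cyfip2+/- library and within the WT range in both genes. Junb read 2226, 2251, 2058 and 1827 against 2291, 2467, 2336 and 2489 (difference -0.20, SE 0.07), with no overlap. Ptgs2, the inducible cyclooxygenase, differed by -0.37, Egr1 by -0.22 and Fosb by -0.18. Jun was the exception with a higher mean (difference 0.15, SE 0.08), and Nr4a2 and Fosl2 stood at 0.00. All 20 had an adjusted p of at least 0.883.

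The list's median was -0.16 without WT library 3, -0.16 without WT library 4 and -0.19 without both, with 6, 8 and 6 genes lower at an unadjusted p under 0.05. Cyfip2+/- libraries moved it more, to -0.11 without library 4 and to -0.21 without library 1. The medians were -0.16 in cortex at PWK 14 and -0.10 in hippocampus at PWK 7, with lower means in 18 and 16 of 20. Cortical and hippocampal libraries of a number may come from the same mouse, so the cortex is not counted as a separate set of animals.

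**Figure D4:**
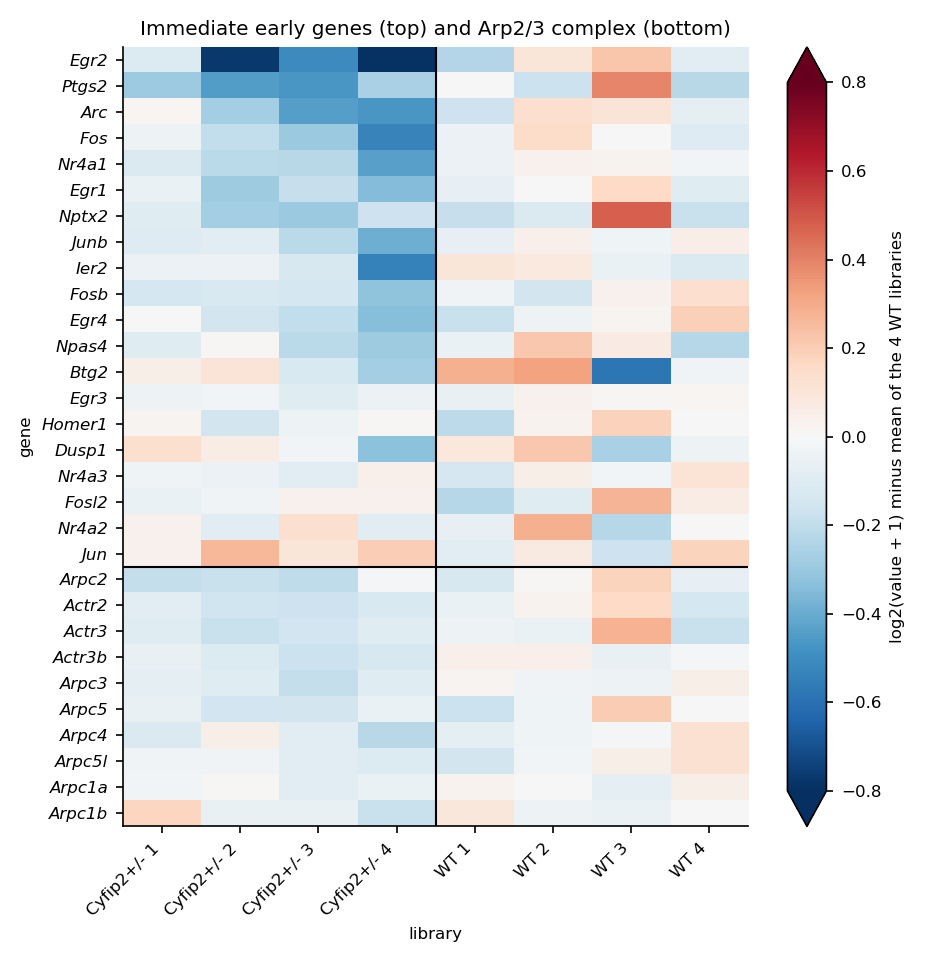
The 20 immediate early genes (above the line) and the 10 genes of the Arp2/3 complex (below it) in each library, as log2(value + 1) minus the mean of the 4 WT libraries. Cyfip2+/- library 4 is the lowest of the 8 for Egr2, Arc, Fos, Nr4a1, Egr1, Junb and Fosb, and WT library 3 is the highest of the 8 for Arpc2, Actr2, Actr3 and Arpc5.

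Many immediate early genes are controlled through the cAMP response element (CRE), so the 250 bases before their starts were searched in RefSeq's promoters (GRCm38.p6), which matched 15 of the 20. The palindrome TGACGTCA was in 2 of the 15, Dusp1 and Btg2, against 1.55% of all 32851 promoters and 2.9% of the 12212 tested genes that have one. Its half-site TGACG, read on both strands and contained in the full element, was in 12 of the 15 (80.0%), against 17.8% of promoters and 28.8% of tested genes. A gene with several promoters counts once if any holds the letters, and a match is not evidence of binding. Of the 6 lower genes with an unadjusted p under 0.05 and a promoter in the table, 5 held the half-site (Fos, Fosb, Junb, Egr2 and Nr4a1) and none the full element. The promoters of Nr4a1 and Junb are shown because of the rule used to choose them. It asked for lower genes at that threshold with a half-site, a single RefSeq promoter and no overlap between genotypes. They lie at chr15:101266596-101266845 on the plus strand and at chr8:84978749-84978998 on the minus strand. Capitals mark the half-site or its reverse complement, 4 times in Nr4a1 and once in Junb.
Nr4a1: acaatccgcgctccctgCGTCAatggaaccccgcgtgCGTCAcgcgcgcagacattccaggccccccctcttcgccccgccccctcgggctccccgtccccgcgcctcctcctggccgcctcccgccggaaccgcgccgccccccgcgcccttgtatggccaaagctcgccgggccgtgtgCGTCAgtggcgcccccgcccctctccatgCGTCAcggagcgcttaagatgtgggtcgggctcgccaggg
Junb: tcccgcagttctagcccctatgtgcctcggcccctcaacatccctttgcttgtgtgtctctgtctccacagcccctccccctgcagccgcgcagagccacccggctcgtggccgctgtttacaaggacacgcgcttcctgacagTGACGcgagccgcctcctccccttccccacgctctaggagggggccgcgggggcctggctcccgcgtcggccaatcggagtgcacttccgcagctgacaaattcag

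Feedback regulators of ERK, the kinase that drives several of these genes, had lower means in 15 of 17 with a median of -0.07. Without WT library 3 this was 11 of 17, and without both WT libraries 3 and 4 the median was -0.03 with 1 lower at an unadjusted p under 0.05. With all libraries, Dusp6 (above) and Dusp5 had an unadjusted p under 0.05, both lower, and none was higher. Dusp5, the nuclear ERK phosphatase, read 964, 815, 855 and 822 in Cyfip2+/- and 914, 1015, 1110 and 1081 in WT mice (difference -0.25, SE 0.08, adjusted p = 0.883). Cyfip2+/- library 1 lay within the WT range, and the other 3 lay below it. The ETS factor Etv4 differed by -0.30 and the inhibitor Spry2 by -0.14. Of 26 genes of cAMP, Epac and Rap1 signalling, 3 were higher (Rapgef3, Creb1 and Prkacb) and 1 was lower (Prkar1b) at that threshold. The shares over all genes were 2.69% and 2.66%. Without WT library 3 there were 2 higher genes, without WT library 4 there was 1, and in neither case was any lower.

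Synaptic genes leaned lower by little. Synaptic vesicle and release genes had lower means in 24 of 29, against 49.1% of all genes, with a median of -0.05. At an unadjusted p under 0.05, 4 were lower and none higher, against 2.66% and 2.69% of all genes. Among these, Cplx1, which clamps and promotes fusion, read 13844 to 14602 in Cyfip2+/- and 14939 to 15830 in WT mice (difference -0.11, SE 0.04, adjusted p = 0.883). Snap25, a core SNARE, read 49472 to 49812 against 51711 to 54000 (difference -0.08, SE 0.04, adjusted p = 0.883). The excitatory postsynapse had lower means in 26 of 34 genes, a median of -0.03 and Cnih2 alone past the unadjusted threshold. The lean of this list turned with 1 library, since without WT library 3 the median was 0.01 with 16 of 34 lower. Without WT library 4 it was -0.09 with 29 of 34 lower and 4 past the threshold. In that last fit 562 of all 16781 genes were lower at the threshold. Cnih2, an auxiliary subunit of AMPA receptors, read 7524, 7392, 6845 and 7760 against 8428, 8029, 8565 and 8955 (difference -0.20, SE 0.05, adjusted p = 0.883). Of 15 granins and processing enzymes of dense-core vesicles, Chgb and Vgf were lower and the convertase Pcsk1 was higher at that threshold, with a median of -0.03. Vgf did not pass it without WT library 3 or without WT library 4. The 21 genes of the GABA synapse had a median of 0.00, or -0.05 without WT library 4, with Gabra2 higher (difference 0.20, adjusted p = 0.883). Without WT library 3 the unadjusted p of Gabra2 was 0.079 by limma.

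The median of the synaptic vesicle list moved from -0.05 to -0.02 without WT library 3, where 16 of 29 had lower means. Without WT library 4 it was -0.07 with 27 of 29 lower.

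Nuclear genes of the respiratory chain had lower means in 68 of 76, against 49.1% of all genes, with a median of -0.06. At an unadjusted p under 0.05, 8 were lower and none higher, against 2.66% and 2.69% of all genes. The genotypes did not overlap in 9 of the 76, all lower, against 3.64% of all genes. Cox5a, a subunit of complex IV, read 2298, 2366, 2298 and 2208 in Cyfip2+/- and 2606, 2427, 2599 and 2820 in WT mice (difference -0.19, SE 0.05, adjusted p = 0.883). The complex I subunits Ndufa12, Ndufa8 and Ndufa10 each differed by -0.17, and none of the 4 overlapped between genotypes. These transcripts are short, with a median of 602 nt in the annotation against 1552 nt over all genes. Across all genes the median difference ran from -0.01 under 1000 nt to 0.03 over 4000 nt, and to -0.00 and 0.01 without WT library 4. Without that library the list's median was -0.03, with 57 of 76 lower and 7 lower at an unadjusted p under 0.05. The 13 mRNAs that mitochondria encode had none past that threshold and a median of -0.03, and the 78 cytosolic ribosomal protein genes, of a median length of 630 nt, had a median of -0.01 with 2 lower. Of 26 antioxidant enzymes, Sod2, Prdx5 and Hmox2 were lower at that threshold and none was higher. Prdx5 did not pass it without WT library 3 or without WT library 4, and Hmox2 did not pass it without WT library 4.

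Cholesterol genes had lower means in 24 of 33, against 49.1% of all genes, with a median of -0.09. At an unadjusted p under 0.05, 2.66% of all genes were lower and 2.69% higher. Of the 33, 5 were lower at an unadjusted p under 0.05, the synthesis enzymes Idi1, Mvd, Hmgcs1, Fdps and Nsdhl, and 2 were higher, Soat1, which stores cholesterol, and Abca1, which exports it. Other members differed the other way or hardly at all, such as the synthesis enzyme Lss at 0.13, the exporter Abcg1 at -0.00 and the lysosomal transporter Npc1 at -0.02. Abca1 read 1531, 1632, 1756 and 1798 in Cyfip2+/- and 1486, 1504, 1391 and 1238 in WT mice (difference 0.26, SE 0.08, adjusted p = 0.883). Idi1, the isomerase that makes the second isoprenoid building block, read 1464, 1557, 1530 and 1532 against 1651, 1669, 1764 and 1696 (difference -0.16, SE 0.05, adjusted p = 0.883). Neither pair of groups overlapped. WT library 3 held the highest value of Idi1 and of Mvd, and without it 2 of the 33 were lower and 3 higher at that threshold, with a median of -0.04 in place of -0.09.

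Genes of the extracellular matrix had higher means in 28 of 43, with a median of 0.08, and 5 higher and 2 lower at an unadjusted p under 0.05, against 2.69% and 2.66% of all genes. The median was 0.03 without WT library 2. The higher genes were Col23a1, Col6a2, Col5a1, Fn1 and Lama2, of which the last 4 are also made by the meninges and vessel walls. Col6a2 read 591, 807, 633 and 753 in Cyfip2+/- and 536, 492, 459 and 607 in WT mice (difference 0.41, SE 0.12, adjusted p = 0.883). Hapln4, a link protein of perineuronal nets, and Chpf2, a chondroitin-synthesising enzyme, were the lower pair. Hapln4 read 2472, 2323, 2242 and 2257 against 2516, 2702, 3028 and 2802 (difference -0.25, SE 0.06, adjusted p = 0.883). Marker genes of meningeal and perivascular fibroblasts had higher means in 7 of 9 with a median of 0.20, or -0.04 without WT library 2, and none past the threshold. Their summed level ran from 5142 to 9818 in Cyfip2+/- and from 3574 to 10210 in WT libraries, and their part in the matrix values was not tested. Of 35 semaphorins, plexins and neuropilins, Plxna3 and Sema3f were higher and none was lower. Sema3f, a ligand that acts through plexin-A3 and neuropilin-2, read 93.5, 166, 278 and 180 against 125, 105, 62.8 and 119, with overlap (difference 0.74, SE 0.31, adjusted p = 0.883). Without WT library 3 the difference of Sema3f was 0.52, with an unadjusted p of 0.114 by limma.

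Markers of cell types were examined in 20 lists. Among neurons, CA1 (9 genes), CA3 (9) and interneuron (13) lists had medians of -0.07, -0.08 and -0.05, and dentate granule cells (11) of 0.03. At an unadjusted p under 0.05 these held 1, 1, 2 and 0 lower and 0, 0, 0 and 1 higher genes. Of all genes, 2.66% were lower and 2.69% higher at that threshold. Lower means were found in 49.1% of all genes. Without WT library 3 the CA3 median was -0.04, and without both WT libraries 3 and 4 it was -0.03. Granule cells had a median of -0.00 without WT library 4 and of -0.01 without both. The lower interneuron genes were Npy and Lhx6, a factor of interneurons from the medial ganglionic eminence (401 to 441 against 454 to 514, difference -0.20, SE 0.07, adjusted p = 0.883). Oligodendrocyte precursor genes had a median of -0.12, with Gpr17 and Olig1 lower at that threshold among 10. Gpr17, a receptor of cells about to myelinate, read 1463, 1485, 1459 and 1590 against 1597, 1812, 1771 and 1716 (difference -0.20, SE 0.06, adjusted p = 0.883). The genotypes did not overlap in Gpr17, with a narrow gap between Cyfip2+/- library 4 and WT library 1. Astrocyte genes had higher means in 11 of 12 with a median of 0.06 and none past the threshold. Without WT library 3, 8 of 12 had higher means, and without both WT libraries 3 and 4, 7 of 12 with a median of 0.02. In each of these fits 1 was higher at the threshold. Reactive astrocyte genes had a median of -0.04, or 0.06 without WT library 3. The summed level of all 10 reactive astrocyte genes, of which 8 were tested, was 15097 to 16040 in Cyfip2+/- and 14189 to 27492 in WT libraries. Microglia and myelinating oligodendrocytes had none past it. For myelinating oligodendrocytes the median was -0.05 with 11 of 14 lower, and -0.01 without WT library 1. Without both WT libraries 3 and 4 it was -0.17 with 14 of 14 lower and 6 past the threshold. In that fit 399 of all 16631 genes were lower at the threshold.

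Thalamus and habenula, which adjoin the hippocampus, had higher means in 7 of 7 marker genes, with a median of 0.25. The mean was lower in 49.1% of all genes. Ramp3, which modifies calcitonin-family receptors, read 102, 99.98, 109 and 107 in Cyfip2+/- and 88.9, 77.5, 42.7 and 70.5 in WT mice (difference 0.62, SE 0.21, adjusted p = 0.883). The summed level of the 7 ran from 1714 to 2417 in Cyfip2+/- and from 1364 to 2010 in WT libraries, and its part in the other results was not tested. Without WT library 3 the median was 0.15, with 6 of 7 higher. Choroid plexus genes had a median of 0.17 and none past the threshold, and single libraries set that value, since it was -0.73 without WT library 2, 0.06 without WT library 3 and 0.81 without WT library 4.

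The genes beside Cyfip2 were examined because the deletion could touch them. Of the 15 other genes tested within 2 Mb of it, 11 had lower means and 2 had an unadjusted p under 0.05. The median was -0.14 and the smallest adjusted p by limma 0.883. Of all genes, 49.1% had lower means, and 2.66% were lower and 2.69% higher at that threshold. Med7, a Mediator subunit, read 444, 397, 394 and 381 in Cyfip2+/- and 447, 489, 488 and 501 in WT mice (difference -0.25, SE 0.08). Lsm11, of the U7 particle that processes histone mRNA, differed by -0.17 (SE 0.07). Both kept the genotypes apart by a narrow gap. Differences from -0.39 to 0.74 were found among the 15.

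The difference between genotypes was then set against that in the cortex of the same age and in the hippocampus at PWK 7. Cyfip2 was lower in both, by -0.59 (SE 0.05, adjusted p = 0.00332) in the cortex and by -0.50 (SE 0.05, adjusted p = 0.0156) at PWK 7. The interactions for Cyfip2 were 0.02 (SE 0.08) with region and -0.06 (SE 0.08) with age. No gene passed the interaction test in either case (0% of 17669 genes for region and 0% of 17473 for age by limma, smallest adjusted p of 0.652 and 0.669), while 552 genes (3.12%) and 625 genes (3.58%) had an unadjusted p under 0.05.

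Plxna3 was among the 5 named genes with the smallest p in both interactions. Its mean was 1654 ± 33.8 (SD, 4 mice) in Cyfip2+/- and 1186 ± 100.03 in WT hippocampus at PWK 14, against 1369 ± 106 and 1337 ± 120 (SD) in the cortex. At PWK 7 the hippocampal means were 1323 ± 94.2 and 1293 ± 76.3 (SD). The genotype difference was thus larger at PWK 14 by 0.45 than in the cortex (SE 0.10, adjusted p = 0.999) and by 0.45 than at PWK 7 (SE 0.09, adjusted p = 0.869), and neither passed. Soat1 stood at 1438 ± 132 and 991 ± 48.5 at PWK 14 and at 1232 ± 41.4 and 1232 ± 150 at PWK 7 (SD), an interaction with age of 0.53 (SE 0.11, adjusted p = 0.869). In both genes the WT mean was lower at PWK 14 than at PWK 7, and the Cyfip2+/- mean was higher. Both were singled out for their difference in the hippocampus at PWK 14, and the interactions use those same libraries. Their rank in the interactions is thus not separate support. Of the other leading genes, AI661453, Ptx4 and Neu2 (region) and Tdgf1 (age) had hippocampal means below 30 at PWK 14, and Mir670hg, Chpf2 and Srp54a had adjusted p of 0.999 or 1.00.

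**Figure D5:**
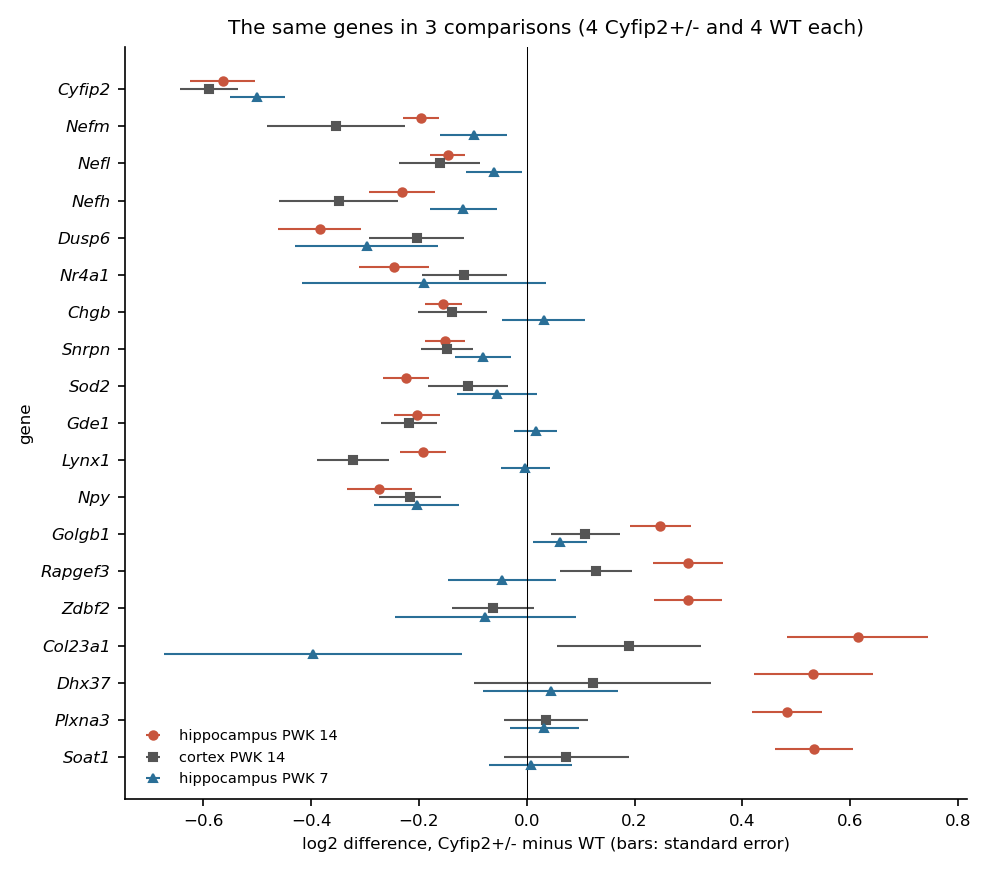
Log2 difference of Cyfip2+/- minus WT, with its standard error as a bar, for 19 genes in the hippocampus at PWK 14 (red), the cortex at PWK 14 (grey) and the hippocampus at PWK 7 (blue), 4 mice per genotype in each. Cyfip2 is at -0.50 to -0.59 in all 3, while Plxna3 and Soat1 are at 0.48 and 0.53 in the first and between 0.01 and 0.07 in the others. Plxna3 and Soat1 were singled out for their difference in the first.

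The lower genes had a mixed record in the other comparisons. Nefm, Nefl, Nefh, Dusp6, Npy and Snrpn had negative differences in all 3. Gde1, which cleaves glycerophosphodiesters, differed by -0.20 at PWK 14, by -0.22 in the cortex (SE 0.05, adjusted p = 0.589) and by 0.02 at PWK 7. Lynx1 differed by -0.19, -0.32 (SE 0.07, adjusted p = 0.569) and 0.00. Of the higher genes, Dhx37, Col23a1 and Golgb1 had positive differences in the cortex of 0.12, 0.19 and 0.11, and Zdbf2 a negative one of -0.06. Col23a1 differed by -0.40 at PWK 7 (adjusted p of 1.00). Whether the signs were shared beyond chance was not tested.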

How the data were processed

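Libraries were grouped by the tissue, age, genotype and replicate number in the sample records, and each column of the deposited table carries the library name of 1 sample. The deposited values are normalized counts, treated here as a signal on a linear scale. The authors estimated transcript levels with Salmon, brought them to genes and normalized them with DESeq2. The submitters' processing notes name Salmon 0.11.2, DESeq2 1.19.11, R 3.6.0 and the build GRCm38. The study's methods name other versions of these tools, and a kit for total RNA where the sample records name one for mRNA, and which were used for these libraries was not settled. The values are not whole, and in the 8 libraries 50.7% to 85.5% of low values of genes with 1 transcript lay within 0.1 of a multiple of the best single step. Reads were thus not recovered, no count test was run, and the read depth is known only roughly (26.9 M to 33.6 M from those steps). Gene names, types, coordinates and lengths come from GENCODE vM21, which matched 18414 of 18428 identifiers.

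Differences were tested with limma (version 3.58.1, R 4.3.3) on log2(value + 1), with lmFit and eBayes with a trend, on the 8 libraries, for genes with at least 10 in at least 4 libraries. This test was used because the values are normalized, and not the count model of the authors. Fold differences on this scale understate those of low genes. P-values are two-sided and adjusted by the Benjamini-Hochberg method over all genes tested. Interactions are contrasts of 4 group means over 16 libraries. The region contrast takes these libraries as independent, though cortex and hippocampus of a number may come from the same mouse. With same-numbered libraries of a genotype taken as 1 mouse in a random block, 0 genes passed (smallest adjusted p = 0.513 by limma). In that fit 655 genes had an unadjusted p under 0.05. Gene lists (49, of which 29 are pathways and 20 cell types) are described by counts and medians. Named are Cyfip2, Cyfip1, every DEG, the 15 genes in each direction with the smallest p among those with a mean of at least 100 and groups that do not overlap, the study's list for this comparison, up to 4 members of each list with the smallest p and the 5 leading genes of each interaction. Predicted genes, pseudogenes and Y-linked genes were not named, apart from a check of Y-linked genes. A few other results are not reported here. Other members of lists, the genes that set WT library 3 apart and the neighbours of Cyfip2 were named after their values were seen. The members and lists were chosen with earlier results of these data known. The method was tested on simulated data. Promoter sequences are RefSeq's. Figures were drawn with matplotlib 3.10.9 in Python 3.11.15.

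Replicate numbers are shared by the genotypes but belong to different mice. Deviations of same-numbered mice correlated by -0.10, 0.23, -0.09 and 0.03, so the numbers were not used as pairs. P-values measure the spread between these mice.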

Additional observations from a re-analysis of the deposited data

Results flagged for a closer look

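In each group of 4 libraries, the genes named for the comparison or as list members, and the mean log2 value of each list, were searched for a library far from its group, meaning that the gap to its nearest neighbour, as a share of the range, passed Dixon's 95% critical value. Of 276 groups examined, 9 had such a library, and chance alone gives about 1 in 20. Cyfip2 read 17233 in Cyfip2+/- library 3 against 18450 to 18678 in the other Cyfip2+/- libraries. Pcsk1 read 697 in WT library 3 against 834 to 860 in the other WT libraries, and Rgs9, a striatal regulator of G-protein signalling, read 458 there against 396 to 402. Hmox2, the constitutive heme oxygenase, read 2002 in WT library 4 against 1834 to 1851. Bok, a relative of the BCL2 proteins that marks CA3, read 1109 in WT library 2 against 1298 to 1336. The mean log2 value of the GABA synapse list was 11.85 in Cyfip2+/- library 3 against 11.93 in the others, and that of the mRNAs mitochondria encode was 15.70 in Cyfip2+/- library 2 against 15.58 to 15.59. In WT library 2 the mean log2 value was 9.94 for the extracellular matrix list, against 10.11 to 10.14, and 8.98 for pericytes and smooth muscle, against 9.20 to 9.22. The cause of these gaps was not tested.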

How the results depend on the processing

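The count of DEGs in the hippocampus at PWK 14 was 1 with all 8 libraries and 2 with array weights, with all 48 libraries in 1 model and with all 24 hippocampal libraries in 1 model. It was 0 with the replicate number as a block, where Cyfip2 kept its difference of -0.56 but had an adjusted p of 0.667 (679 genes at an unadjusted p under 0.05), and the same-numbered mice are different animals. Leaving out each library gave 0 to 1 DEG and a difference of Cyfip2 of -0.61 to -0.52. The interaction with region had 0 DEGs, and 0 to 1 when a library was left out (1 pseudogene without cortex Cyfip2+/- library 2). The interaction with age had 1 with all 48 libraries and 0 to 1 when a library was left out (1 predicted gene without hippocampal WT library 4). The replicate block changed no other call. List medians, which have no test, were less stable. Over the 21 alternatives 25 of the 49 kept their sign and 24 changed it at least once, among them the excitatory postsynapse (-0.09 to 0.01), heat shock (-0.07 to 0.05), glucocorticoid targets (-0.02 to 0.16), choroid plexus (-0.73 to 0.96), fibroblasts (-0.04 to 0.29), reactive astrocytes (-0.23 to 0.17) and the GABA synapse (-0.05 to 0.03). Those that kept it include immediate early genes (-0.21 to -0.11), Arp2/3 (-0.12 to -0.07), neurofilaments (-0.12 to -0.07), WAVE (-0.10 to -0.03), the respiratory chain (-0.08 to -0.03), cholesterol (-0.11 to -0.03), synaptic vesicles (-0.07 to -0.01) and extracellular matrix (0.03 to 0.12). Leaving out both WT libraries 3 and 4 was added after the data were seen, and gave 1 DEG. Rescaling, filters and pseudocounts of 0.1 or 10 left the count at 1. The cause of these shifts was not tested. Count models were not run because the values are not counts. With 4 mice a genotype and a median residual SD of 0.14 for single genes, gene differences of the size of most list medians cannot be told from the spread between mice. The spread of whole lists between mice was not tested.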

Other observations

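Several gene groups lie outside the comparison's main lists. They are set beside the shares over all genes, 2.69% higher and 2.66% lower at an unadjusted p under 0.05 and 49.1% with lower means. The 28 genes of the heat shock and unfolded protein response had no member past an unadjusted p of 0.05 and a median of -0.03 with 21 lower. Without WT library 4 the median of that list was 0.05, and 10 of the 28 had lower means. In that fit 1 gene was higher at that threshold and none was lower. The 13 glucocorticoid targets had none past it and a median of 0.03, or 0.16 with 2 higher at that threshold without WT library 4, and -0.02 without WT library 3. Of 48 spliceosome and RNA-binding genes, Srsf7 and Srsf1 were higher and Snrpn lower at that threshold, with a median of 0.00. Neither Srsf7 nor Srsf1 passed it without WT library 3. Of 37 imprinted genes, Zdbf2 and the potassium channel Kcnk9 were higher and Snrpn was lower, with a median of 0.07, or 0.02 without WT library 3. Kcnk9 read 4714, 4908, 4762 and 5065 in Cyfip2+/- and 4154, 5044, 3563 and 4019 in WT mice, with overlap (difference 0.22, SE 0.09, adjusted p = 0.883). Its unadjusted p was 0.072 by limma without WT library 3. Of 18 clock genes, Npas2 and Hlf were higher. Hlf, a factor that follows the daily cycle, read 3479 to 4207 in Cyfip2+/- and 3334, 3737, 2078 and 3202 in WT mice, the low value being WT library 3 (difference 0.34, SE 0.15, adjusted p = 0.883). Without that library no clock gene passed the threshold.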
